A study of Mus musculus with 6 samples.

Results

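Red cell transcripts were followed in thoracic spinal cord RNA of mice at postnatal day 0, through 8 genes picked by name out of 55487 in the table. They are the adult beta-globin genes Hbb-bs and Hbb-bt, the adult alpha-globin genes Hba-a1 and Hba-a2, the embryonic beta-like globin genes Hbb-y and Hbb-bh1, the erythroid heme enzyme Alas2 and the red cell anion exchanger Slc4a1. Each name matched 1 gene of the table. The samples were 3 wild-type cords (WT) and 3 cords labelled Myt1-/- (below called the null), for the gene of a neural zinc finger factor. The sources used here give no strain, allele, sex or litter, do not say whether blood was flushed from the animals, and do not say that each sample is a different animal. All p-values therefore set the difference of the groups only against the variation among these samples, which may be technical. Values are TPM, a transcript's share of its library after correction for transcript length. They carry no read depth, so the depth is unknown and counting error cannot be stated.

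Hemoglobin is built from alpha-like and beta-like chains with a heme group in each. In mice the primitive red cells of the yolk sac make embryonic chains such as those of Hbb-y, Hbb-bh1 and Hba-x, and the definitive red cells that later leave the fetal liver make the adult chains. Young red cells that have lost their nucleus still hold globin RNA, so bulk RNA of a tissue that contains blood carries it.

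The targeted gene and the tissue markers were read before the blood genes. Myt1 read 11.54, 11.53 and 13.61 TPM in the WT cords and 6.14, 5.36 and 5.28 TPM in the null cords. Every null cord was lower, by -1.0 (SE 0.11) on the log2(TPM + 1) scale, with an adjusted p of 0.140 by limma. The neuronal genes Tubb3, Stmn2 and Snap25 lay between 404.23 and 1332.27 TPM in every sample. WT replicate 1 gave 11.3% of its TPM to the mitochondrial genome, against 8.64% to 9.04% elsewhere. WT replicate 3 and null replicates 2 and 3 also stood apart from the other 3 libraries, across the genotypes, in a gene named after its values were seen. That gene came from the ranking by likeness to Hbb-bs given below. A division of the libraries like that of Hbb-bs therefore follows from the choice. Gm15459, annotated as a processed pseudogene on chromosome 5, was at 0.12 and 0.39 TPM in WT replicates 1 and 2 and listed at 0 in null replicate 1. It was at 419.54 TPM in WT replicate 3 and at 431.83 and 411.46 TPM in null replicates 2 and 3. Reads of a processed pseudogene can also match its parent gene, so these values are uncertain, and whether the same difference between libraries has a part in the globin values was not tested.

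The adult globins are pairs of near-identical copies, so each pair is given as a sum as well as gene by gene. In the GENCODE M21 transcripts (GRCm38), the 429 coding bases of Hba-a1 and Hba-a2 differ at 1 base, C381T, and the 444 coding bases of Hbb-bs and Hbb-bt differ at 1 base, C417T. Positions are counted from 1 at the A of the start codon, with the base of the first-named gene written before the position. The substitutions fall at base 3 of codon 127 and at base 3 of codon 139. The stretches of 41 coding bases around these positions are shown because they hold the only coding bases by which the copies can be told apart, in capitals.
Hba-a1: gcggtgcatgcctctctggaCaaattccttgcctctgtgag
Hba-a2: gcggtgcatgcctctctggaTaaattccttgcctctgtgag
Hbb-bs: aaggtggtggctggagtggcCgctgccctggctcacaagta
Hbb-bt: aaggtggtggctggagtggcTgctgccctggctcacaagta
Of all runs of 100 bases in the 554-base transcript of Hba-a2, 74.5% occur unchanged in that of Hba-a1, and 56.5% of those in the 699-base transcript of Hba-a1 occur in that of Hba-a2. For the beta pair the shares were 62.6% of the Hbb-bs runs and 54.8% of the Hbb-bt runs. The annotated transcript of Hba-a1 starts 196 bases before its coding part and that of Hba-a2 35 bases before. In these transcripts the copies are told apart mostly outside the coding part. The longer start of Hba-a1 is a difference of annotation. Its 161 bases within the promoter window given below lie in a run of 247 bases that also precedes Hba-a2. The annotation behind the TPM, which sets the transcript lengths, is not stated. By contrast the coding bases of Hbb-y were 74.3% identical to those of Hbb-bs, with no shared run longer than 22 bases, so long exact matches between them do not occur.

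The proximal promoters of the genes that varied together were read from RefSeq (GRCm38.p6), with that of the embryonic gene Hbb-y beside them. Hbb-y lay between 0 and 1.35 TPM, too low to judge whether it varied with the others. Each is the 250 bases before the start in RefSeq, 5′ to 3′ on the gene's own strand. GENCODE M21 lets these genes begin further upstream, so part of each window lies inside the GENCODE gene: 168 bases for Hbb-bs, 161 for Hba-a1, 73 for Hbb-bt, 42 for Alas2, 9 for Hbb-y and 3 for Hba-a2. Capitals mark every match of CCAAT, of CACCC, of GATAAG and of TATAA on either strand; neighbouring matches run together, as the reverse and forward CCAAT of Hbb-bt do.
Hbb-bs: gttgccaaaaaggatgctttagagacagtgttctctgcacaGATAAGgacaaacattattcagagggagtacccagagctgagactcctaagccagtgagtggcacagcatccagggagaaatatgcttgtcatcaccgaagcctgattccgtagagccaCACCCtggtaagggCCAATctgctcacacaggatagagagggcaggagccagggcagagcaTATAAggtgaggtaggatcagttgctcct
Hbb-bt: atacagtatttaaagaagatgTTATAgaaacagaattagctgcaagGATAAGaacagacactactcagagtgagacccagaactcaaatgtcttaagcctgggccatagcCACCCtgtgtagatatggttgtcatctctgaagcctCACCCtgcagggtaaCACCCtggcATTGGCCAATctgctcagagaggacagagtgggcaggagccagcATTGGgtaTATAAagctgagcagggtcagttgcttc
Hba-a1: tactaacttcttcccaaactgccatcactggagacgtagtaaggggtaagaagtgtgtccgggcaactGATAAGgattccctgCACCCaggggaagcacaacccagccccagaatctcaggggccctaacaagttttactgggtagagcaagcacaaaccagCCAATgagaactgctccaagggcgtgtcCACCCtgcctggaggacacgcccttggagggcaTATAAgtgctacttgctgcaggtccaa
Hbb-y: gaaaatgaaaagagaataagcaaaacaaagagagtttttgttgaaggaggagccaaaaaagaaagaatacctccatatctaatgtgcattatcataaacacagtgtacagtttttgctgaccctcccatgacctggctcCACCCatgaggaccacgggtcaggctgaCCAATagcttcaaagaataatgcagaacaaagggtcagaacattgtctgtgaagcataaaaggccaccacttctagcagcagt
Alas2: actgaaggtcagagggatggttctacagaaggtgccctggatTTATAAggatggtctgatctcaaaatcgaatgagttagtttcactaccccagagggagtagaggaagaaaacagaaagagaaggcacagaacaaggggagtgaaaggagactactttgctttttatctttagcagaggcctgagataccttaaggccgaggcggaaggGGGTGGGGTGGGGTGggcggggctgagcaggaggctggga
The windows lie at chr7:103827929-103828178, minus strand (Hbb-bs), chr7:103813924-103814173, minus strand (Hbb-bt), chr11:32283422-32283671, plus strand (Hba-a1), chr7:103853208-103853457, minus strand (Hbb-y), and chrX:150547167-150547416, plus strand (Alas2). The window of Hba-a2, at chr11:32296242-32296491 on the plus strand, shares an unbroken run of 247 bases with that of Hba-a1. A RefSeq window was found for 6 of the 8 genes; Hbb-bh1 and Slc4a1 are named only. The windows of all 4 adult globin genes held each of the 4 motifs, with a forward CCAAT starting 75 to 91 bases and a forward TATAA 27 to 30 bases before the start. GATAAG, which contains the core GATA that erythroid GATA factors bind, lay 182 to 209 bases before the start in those windows. The whole word was not found in the windows of Hbb-y or Alas2, but the core alone was not searched. Its reverse complement, TATC, can be read in both of these windows, so a lack of GATA sites does not follow. Alas2 held 3 reverse copies of CACCC, an overlapping forward and reverse TATAA and no CCAAT, while Hbb-y held 1 CCAAT and 1 CACCC. Over 32851 promoter windows of the same length, 33.8% held CCAAT, 52.0% CACCC, 6.55% GATAAG and 22.8% TATAA on either strand. These matches describe the letters only, and binding was not measured.

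The most abundant transcripts of the set were the adult globins, and their level differed between libraries of the same genotype by more than between the genotypes. Hbb-bs (ENSMUSG00000052305, chromosome 7, 103826534 to 103828096, minus strand, GRCm38) read 502.60, 706.00 and 2900.51 TPM in the WT cords and 767.67, 1897.21 and 2701.90 TPM in the null cords. The highest and lowest values, 5.77-fold apart, were both WT, so the groups overlapped fully. Group means were 1370 ± 1330 TPM (WT) and 1789 ± 972 TPM (null; SD, n = 3). In bulk tissue, fewer red cells and less globin RNA per red cell cannot be told apart.

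Hbb-bt, the second adult beta gene of the same cluster (chromosome 7, 103812524 to 103813996, minus strand), repeated this order of libraries at a lower level. It read 102.06, 136.62 and 638.26 TPM in the WT cords and 137.92, 355.43 and 504.60 TPM in the null cords. The libraries kept the same rank order as for Hbb-bs. Group means were 292 ± 300 TPM (WT) and 333 ± 184 TPM (null; SD, n = 3).

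The alpha genes Hba-a1 (ENSMUSG00000069919, chromosome 11, 32283511 to 32284465, plus strand) and Hba-a2 (ENSMUSG00000069917, chromosome 11, 32296489 to 32297298, plus strand) did not share that regularity one by one. Hba-a1 read 522.27, 444.49 and 1281.26 TPM in the WT cords and 473.53, 826.16 and 1061.86 TPM in the null cords, a 2.88-fold range. Hba-a2 read 136.77, 466.45 and 2695.07 TPM in the WT cords and 437.18, 1683.32 and 2270.24 TPM in the null cords, a 19.7-fold range. WT replicate 1 stood out, with the lowest Hba-a2 of all libraries but more Hba-a1 than WT replicate 2 or null replicate 1. Group means were 749 ± 462 and 787 ± 296 TPM for Hba-a1 and 1099 ± 1392 and 1464 ± 936 TPM for Hba-a2, in WT and null (SD, n = 3 each).

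Alas2 (ENSMUSG00000025270, chromosome X, 150547375 to 150570638, plus strand), which catalyses the opening step of heme synthesis in red cells, followed the beta-globins. It read 3.49, 4.21 and 16.13 TPM in the WT cords and 4.49, 9.0 and 12.02 TPM in the null cords. Its rank order over the 6 libraries was that of Hbb-bs, at a level of 0.445% to 0.694% of it. Group means were 7.94 ± 7.10 TPM (WT) and 8.50 ± 3.79 TPM (null; SD, n = 3).

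Slc4a1 (ENSMUSG00000006574, chromosome 11, 102348824 to 102366203, minus strand), the chloride and bicarbonate exchanger of the red cell membrane, was near the limit of what the table resolves. It read 0.34, 0.97 and 1.49 TPM in the WT cords and 0.33, 1.08 and 1.02 TPM in the null cords. The lowest values fell in WT replicate 1 and null replicate 1, which were also low for Hbb-bs, and WT replicate 3 was highest for both genes. Group means were 0.933 ± 0.576 TPM (WT) and 0.810 ± 0.417 TPM (null; SD, n = 3).

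The embryonic genes were almost silent. Hbb-y (ENSMUSG00000052187, chromosome 7, 103851749 to 103853216, minus strand) was at 0.84, 0.24 and 0.42 TPM in the WT cords and at 1.06 and 1.35 TPM in null replicates 2 and 3, while it was listed at 0 in null replicate 1. WT replicate 1, the library with the least adult beta-globin, had more Hbb-y than the other WT samples. Hbb-bh1 (ENSMUSG00000052217, chromosome 7, 103841637 to 103843164, minus strand) was listed at 0 in all 6 libraries. Hba-x, the embryonic alpha-like gene, which is outside the set, was at 0.14 TPM in WT replicate 3, at 0.47 TPM in null replicate 2 and listed at 0 in the other 4.

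Ordered by mean over the 6 libraries, the levels ran from Hbb-bs (1579 TPM) over Hba-a2 (1282 TPM), Hba-a1 (768 TPM), Hbb-bt (312 TPM) and Alas2 (8.22 TPM) to Slc4a1 (0.872 TPM), Hbb-y (0.652 TPM) and Hbb-bh1. Hbb-bs exceeded Hba-a2 in 6 of 6 libraries, Hba-a1 exceeded Hbb-bt in 6 of 6, and Hbb-bt exceeded Alas2 in 6 of 6. Hba-a2 exceeded Hba-a1 in 4 of 6, and Slc4a1 exceeded Hbb-y in 4 of 6, so these neighbours are not separated beyond their spread.

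**Figure D1:**
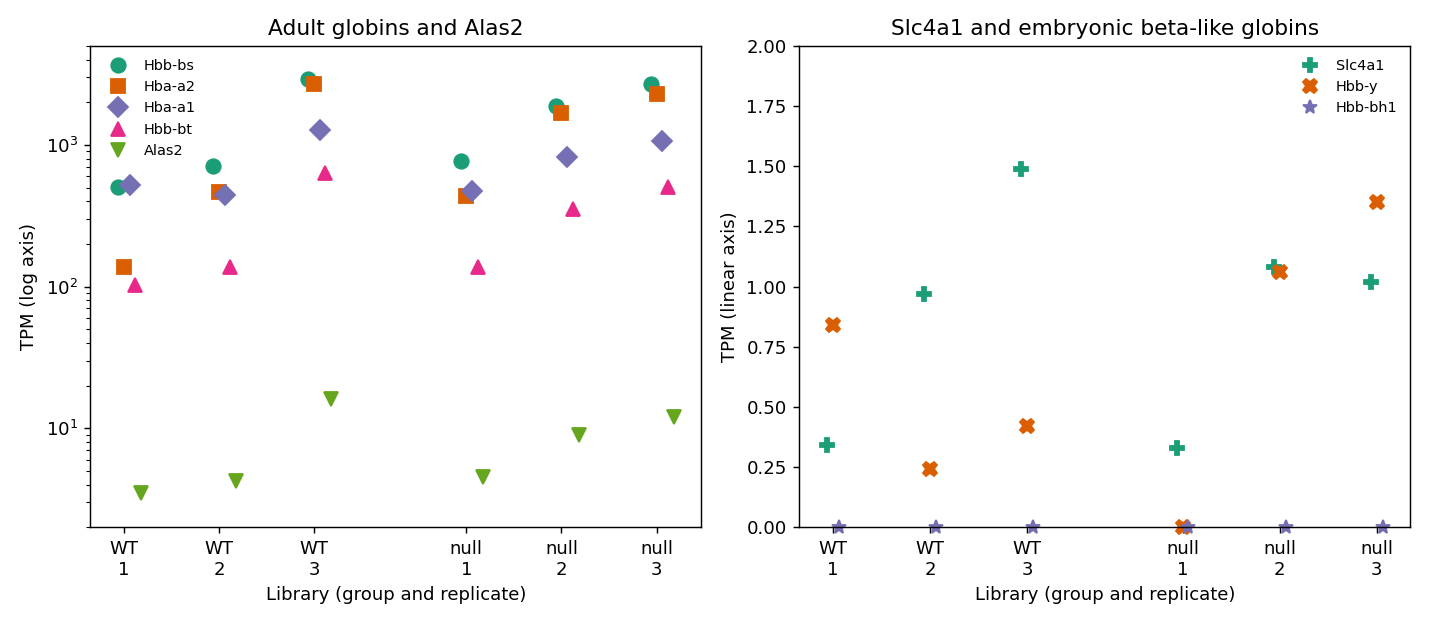
TPM of the 8 genes in each of the 6 libraries, with the adult globins and Alas2 on a log axis and Slc4a1, Hbb-y and Hbb-bh1 on a linear axis; each point is 1 library and replicate numbers carry no order. WT replicate 3 and null replicates 2 and 3 are high for the adult globins and Alas2 while Hbb-bh1 stays at 0.

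None of the genes passed the test of genotype. The test was limma on log2(TPM + 1), fitted to the 15962 genes with a mean of at least 1 TPM and adjusted over all of them by the Benjamini-Hochberg method, with 0.05 as the threshold. Of the 8 genes 5 entered it; Slc4a1, Hbb-y and Hbb-bh1 had means under 1 TPM. On this scale the difference of null from WT was 0.64 (SE 0.73, 95% interval -1.10 to 2.39) for Hbb-bs and 0.49 (SE 0.77, -1.34 to 2.31) for Hbb-bt. It was 0.16 (SE 0.45, -0.92 to 1.24) for Hba-a1, 1.09 (SE 1.12, -1.57 to 3.76) for Hba-a2 and 0.28 (SE 0.56, -1.06 to 1.61) for Alas2. The adjusted p by limma was 0.836 for Hbb-bs, 0.883 for Hbb-bt, 0.943 for Hba-a1, 0.821 for Hba-a2 and 0.914 for Alas2.

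Of the 5 genes tested 0 passed, against 0% of all genes at this threshold, and 0 had an unadjusted p under 0.05, against 7.45% of all genes (4.32% higher and 3.13% lower in the null). In 0 of the 5 did the groups fail to overlap, against 14.3% of all genes (8.91% with the null above and 5.38% with the null below). The median change of the 5 was 0.49, beside 0.025 over all genes tested. These intervals are wide: the SE of the 5 genes ran from 0.45 to 1.12, where the median gene had 0.11, and placed them between the 96.5th and 99.3rd percentile of all genes tested. Leaving out WT replicate 3, the WT library with the most globin, moved the change of Hbb-bs to 1.40 and that of Hba-a2 to 2.23, and leaving out WT replicate 1 moved them to 0.14 and 0.082. Hba-a1 turned negative without WT replicate 1, WT replicate 2 or null replicate 3, and Hbb-bt and Alas2 without WT replicate 1 (between -0.13 and -0.016 over these fits).

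**Figure D2:**
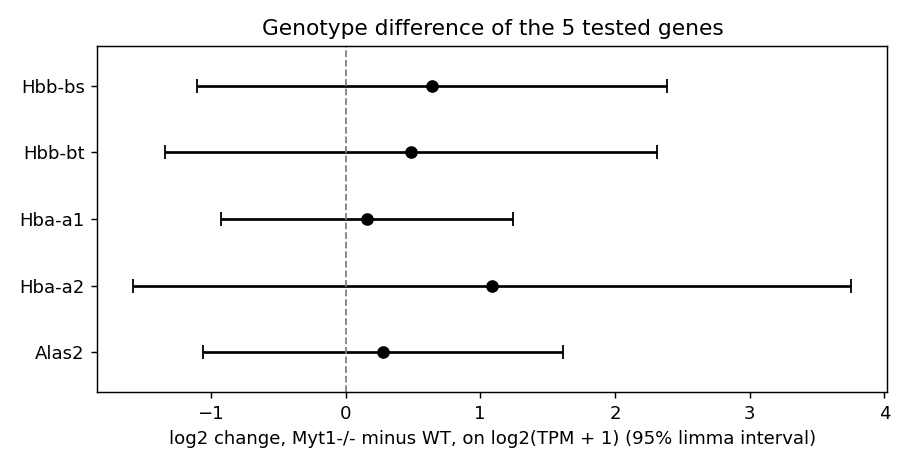
Change of the 5 tested genes, as log2(TPM + 1) of null less that of WT, as points with 95% intervals from limma; the dashed line marks 0. Every interval spans 0, from -1.57 to 3.76 for Hba-a2, the widest.

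Ratios between members within a library were taken as descriptions, 6 in all, without a test; an exact permutation test of 3 samples against 3 cannot give a p under 0.1. In TPM, the adult alpha and beta transcripts were nearly even in every library. The protein chains were not measured, and TPM depend on the transcript lengths used. The sum of Hba-a1 and Hba-a2 over the sum of Hbb-bs and Hbb-bt was 1.09, 1.08 and 1.12 in WT and 1.01, 1.11 and 1.04 in the null. Across the 6 libraries this ratio varied 1.12-fold, while the beta sum itself varied 5.85-fold, from 605 to 3539 TPM. The mean was 1.10 ± 0.0225 for WT cords and 1.05 ± 0.0555 for null cords (SD, n = 3), and the groups overlapped.

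How the alpha sum divided between its near-identical copies was far less stable. Hba-a2 made up 20.8%, 51.2% and 67.8% of it in WT and 48.0%, 67.1% and 68.1% in the null. The libraries with the most globin, WT replicate 3 and null replicates 2 and 3, lay within 67.1% to 68.1%, and the 3 libraries with less lay lower. The difference of the means, 14.5 percentage points, shrank to 1.58 when WT replicate 1 was left out and grew to 25.1 when WT replicate 3 was. Since the coding parts differ at 1 base, this split rests on how reads were assigned, which the TPM do not record; the part of that step in the split was not tested.

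The beta pair held a steadier proportion. Hbb-bt was at 20.3%, 19.4% and 22.0% of Hbb-bs in WT and at 18.0%, 18.7% and 18.7% in the null. The groups did not overlap, the null being lower, with means of 20.6% ± 1.34 for WT cords and 18.5% ± 0.428 for null cords (SD, n = 3). The nearest samples of the groups, at 19.4% and 18.7%, were closer than the SD of WT. This was the only ratio of the 6 in which the groups did not overlap, it was singled out after its values were seen, and reads shared between the copies bear on it too.

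The erythroid genes relative to Hbb-bs gave further ratios. Alas2 was at 0.694%, 0.596% and 0.556% of Hbb-bs in WT and at 0.585%, 0.474% and 0.445% in the null, with means of 0.616% ± 0.0711 and 0.501% ± 0.0738 (SD, n = 3 each). The groups overlapped through null replicate 1 and WT replicate 3. Slc4a1 relative to Hbb-bs was at 0.0676%, 0.137% and 0.0514% in WT and at 0.0430%, 0.0569% and 0.0378% in the null, also overlapping.

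The embryonic share of beta-like globin was far below 1% everywhere. Hbb-y plus Hbb-bh1 came to 0.139%, 0.0285% and 0.0119% of Hbb-bs plus Hbb-bt in WT. In the null it came to 0.0471% and 0.0421% in replicates 2 and 3 and was listed at 0 in replicate 1. The highest and the lowest nonzero shares were both WT, and the means, 0.0598% ± 0.0691 and 0.0297% ± 0.0259 (SD, n = 3 each), differed by less than the spread within WT. All of the embryonic value came from Hbb-y. Without WT replicate 1 the difference, null minus WT, changed sign, from -0.030 to 0.0095 percentage points.

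**Figure D3:**
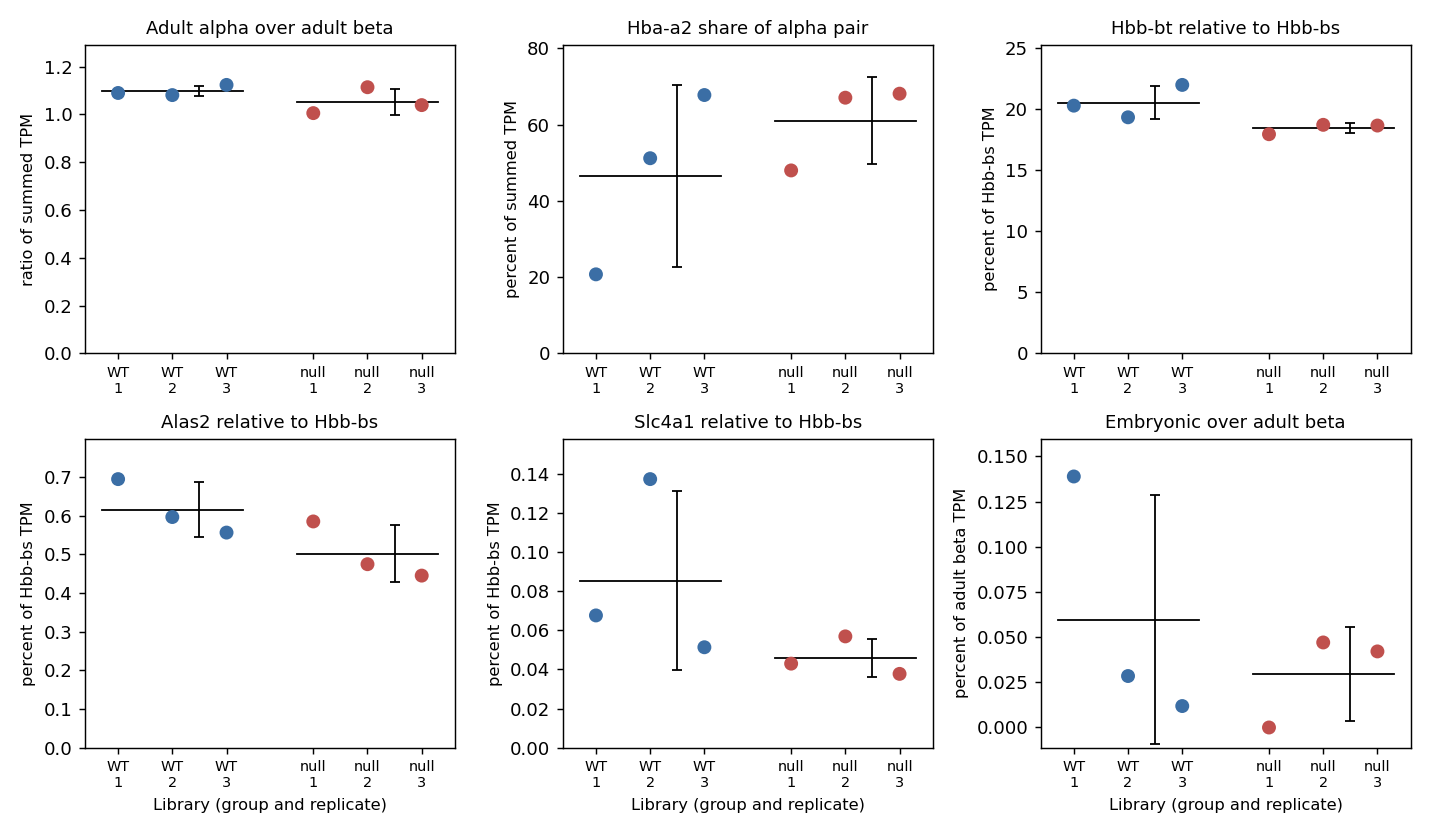
Ratios within each library from TPM: each point is 1 library (blue WT, red null), the horizontal line is the group mean and the bar its SD (n = 3). The alpha to beta ratio stays between 1.01 and 1.12 and Hbb-bt between 18.0% and 22.0% of Hbb-bs, while the Hba-a2 share runs from 20.8% to 68.1% and the embryonic share peaks at 0.139% in WT replicate 1.

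All 6 globin genes together took 0.127%, 0.176% and 0.756% of TPM in the WT libraries and 0.183%, 0.479% and 0.658% in the null libraries. The mean share was 0.353% ± 0.349 for WT cords and 0.440% ± 0.240 for null cords (SD, n = 3), with overlapping groups. The difference, 0.087 percentage points higher in the null, rose to 0.288 without WT replicate 3 and to 0.216 without null replicate 1. It turned to -0.026 without WT replicate 1, -0.0012 without WT replicate 2 and -0.022 without null replicate 3. At under 1% of the total, globin took little room from other genes in TPM.

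Other genes of red cell biology were taken from 5 lists. Their most abundant members are known outside red cells too, and most of these varied little with the globins. The cells that made these transcripts were not identified in bulk RNA. Members near the floor went both ways, with 2 named after their values were seen. Trim10 was highest in the libraries high in Hbb-bs, while Klf1 was highest in WT replicate 1. Of 14 heme synthesis genes all were measured, meaning a mean of at least 1 TPM, and 0 passed the test in either direction, with a median change of -0.036. Alas1, the heme enzyme of other tissues, averaged 63.2 ± 6.73 TPM (WT) and 59.8 ± 5.12 TPM (null; SD, n = 3), a 1.29-fold range over libraries against 4.62-fold for Alas2. Of the other leading members, Tmem14c, a mitochondrial porphyrin transporter, averaged 90.3 and 95.6 TPM in WT and null. Slc25a39 averaged 78.6 and 78.5 TPM, and Glrx5, which acts in iron-sulfur cluster assembly, 69.7 and 65.7 TPM.

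Of 17 red cell membrane and skeleton genes 9 were measured and 0 passed, with a median of 0.023. The most abundant were the skeletal proteins that neurons also make: Dmtn at 85.2 and 84.1 TPM, Add2 at 61.6 and 65.4 TPM, beta-spectrin Sptb at 41.7 and 42.4 TPM, and Epb41 at 37.8 and 40.8 TPM, as means of WT and null. The members that mark red cells were near the floor, and 6 of the 17 were under 1 TPM in every library. WT replicate 3, the highest library for Hbb-bs, was also the highest for 9 of the 17.

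Of 12 erythroid transcription factors 7 were measured and 0 passed, with a median of -0.0083. Those with the highest levels also act outside blood: Ldb1 at 77.1 and 76.7 TPM in WT and null, Bcl11a, known for repressing embryonic globin in red cells and also made by neurons, at 58.7 and 63.8 TPM, Lmo2 at 43.8 and 46.9 TPM and Sox6 at 13.98 and 11.2 TPM. The erythroid master factor Gata1, named after its values were seen, was listed at 0 in 4 libraries and at 0.13 and 0.05 TPM in WT replicate 3 and null replicate 3.

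Among 22 other red cell and reticulocyte genes 20 were in the table and 12 were measured, with 0 passing and a median of 0.0076. Prdx2, a peroxiredoxin abundant in red cells, averaged 420 ± 11.2 TPM (WT) and 426 ± 7.56 TPM (null; SD, n = 3). Mgst3 averaged 161 and 153 TPM and Mkrn1 141 and 143 TPM in WT and null. Car2, a carbonic anhydrase that oligodendrocytes also make, averaged 38.7 TPM (WT) and 26.7 TPM (null), with an unadjusted p of 0.00129 and an adjusted p of 0.457 by limma; it was named for the smallest p in its list.

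Of 9 other globin genes listed 7 were in the table and 3 were measured, with 0 passing and a median of -0.19. Cygb, cytoglobin, averaged 33.7 ± 2.70 TPM (WT) and 32.8 ± 0.997 TPM (null; SD, n = 3). Neuroglobin, Ngb, read 4.93, 4.92 and 7.07 TPM in the WT cords and 4.62, 4.83 and 4.82 TPM in the null cords. The groups of Ngb did not overlap, by a gap smaller than the SD of WT, and its adjusted p by limma was 0.766. Myoglobin, Mb, was highest in WT replicate 2, at 8.73 TPM, against 0.91 to 2.78 TPM elsewhere, and Hbq1a, a theta-like globin, did not exceed 1.51 TPM. Neither the highest Mb nor the range of Cygb, 1.16-fold, matched the libraries high in Hbb-bs.

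Among 12 genes that handle hemoglobin and iron 11 were measured and 0 passed, with a median of -0.085. The ferritin subunits were the most abundant, with Fth1 at 1767 ± 18.5 TPM (WT) and 1666 ± 28.9 TPM (null) and Ftl1 at 1786 ± 143 and 1811 ± 16.4 TPM (SD, n = 3 each). Fth1 had an unadjusted p of 0.0453 and an adjusted p of 0.671 by limma. With Fth1, 3 of the 11 measured had an unadjusted p under 0.05 by limma, all lower in the null. Over all genes tested the share was 7.45% in either direction. Trf, the plasma iron carrier transferrin, which oligodendrocytes also make, varied 3.80-fold, with its highest value, 97.57 TPM, in WT replicate 3. Blvra, biliverdin reductase A, averaged 21.5 and 20.8 TPM in WT and null.

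Transcripts of other blood and vessel cells were set beside the globins library by library, to see which moved with them. Neutrophil genes did so in part: their summed level, over 9 genes of which 3 were measured, was 9.58, 15.9 and 37.2 TPM in the WT cords and 12.7, 27.1 and 26.4 TPM in the null cords. The 3 libraries high in Hbb-bs were the 3 highest here as well. S100a9, a calcium-binding protein of neutrophils, read 3.86, 6.65 and 19.48 TPM in the WT cords and 8.08, 15.31 and 10.99 TPM in the null cords. Among the other leading genes, S100a8 ran from 2.62 to 9.92 TPM and Ngp from 0.45 to 3.0 TPM, both highest in the libraries high in Hbb-bs. Ltf, from 0.20 to 1.46 TPM, did not divide in this way. It was at 1.44 TPM in WT replicate 2, low in Hbb-bs, and at 0.77 TPM in null replicate 2, high in Hbb-bs. Retnlg, named after its values were seen, was highest in WT replicate 2, at 1.08 TPM.

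The other blood and vessel lists varied less. Platelet and megakaryocyte genes, of which 4 of 9 were measured and 5 stayed under 1 TPM in every library, summed to 47.7 to 70.4 TPM across WT cords and 58.3 to 63.4 TPM across null cords. Pf4, platelet factor 4, which macrophages also express, made up most of it, at 43.0 ± 12.5 and 42.3 ± 4.03 TPM (SD, n = 3 each). Lymphocyte genes, of which 2 of 8 were measured, summed to 4.27 to 6.98 TPM across WT cords and 5.17 to 7.19 TPM across null cords. Macrophage and microglia genes, all 12 measured, summed to 240 to 311 TPM across WT cords and 219 to 265 TPM across null cords. Endothelial genes, all 10 measured, summed to 307 to 316 TPM across WT cords and 286 to 295 TPM across null cords, so these ranges did not overlap, with a 1.10-fold range over libraries beside 5.94-fold for the globin and erythroid set. No member of these lists or of the neutrophil list passed. The 2 with an unadjusted p under 0.05 were Pecam1 and Vwf, both endothelial and both lower in the null. By limma the adjusted p was 0.669 for each. Among the genes tested in the whole table, 7.45% had an unadjusted p that low, in either direction. Whether the endothelial list differs from this share was not tested.

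Markers of neighbouring tissue also differed between libraries, and those of muscle shared part of the globin pattern. Skeletal muscle genes summed to 17.1, 22.4 and 91.2 TPM in the WT cords and to 16.5, 20.7 and 207 TPM in the null cords. The highest muscle sums were in null replicate 3 and WT replicate 3, both high in globin, while null replicate 2, also high in globin, was low in muscle. Sensory ganglion genes summed to 438, 258 and 563 TPM in the WT cords and to 304, 291 and 147 TPM in the null cords, with the lowest value in null replicate 3, which was high in globin. The part of these tissues in the globin levels was not tested.

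**Figure D4:**
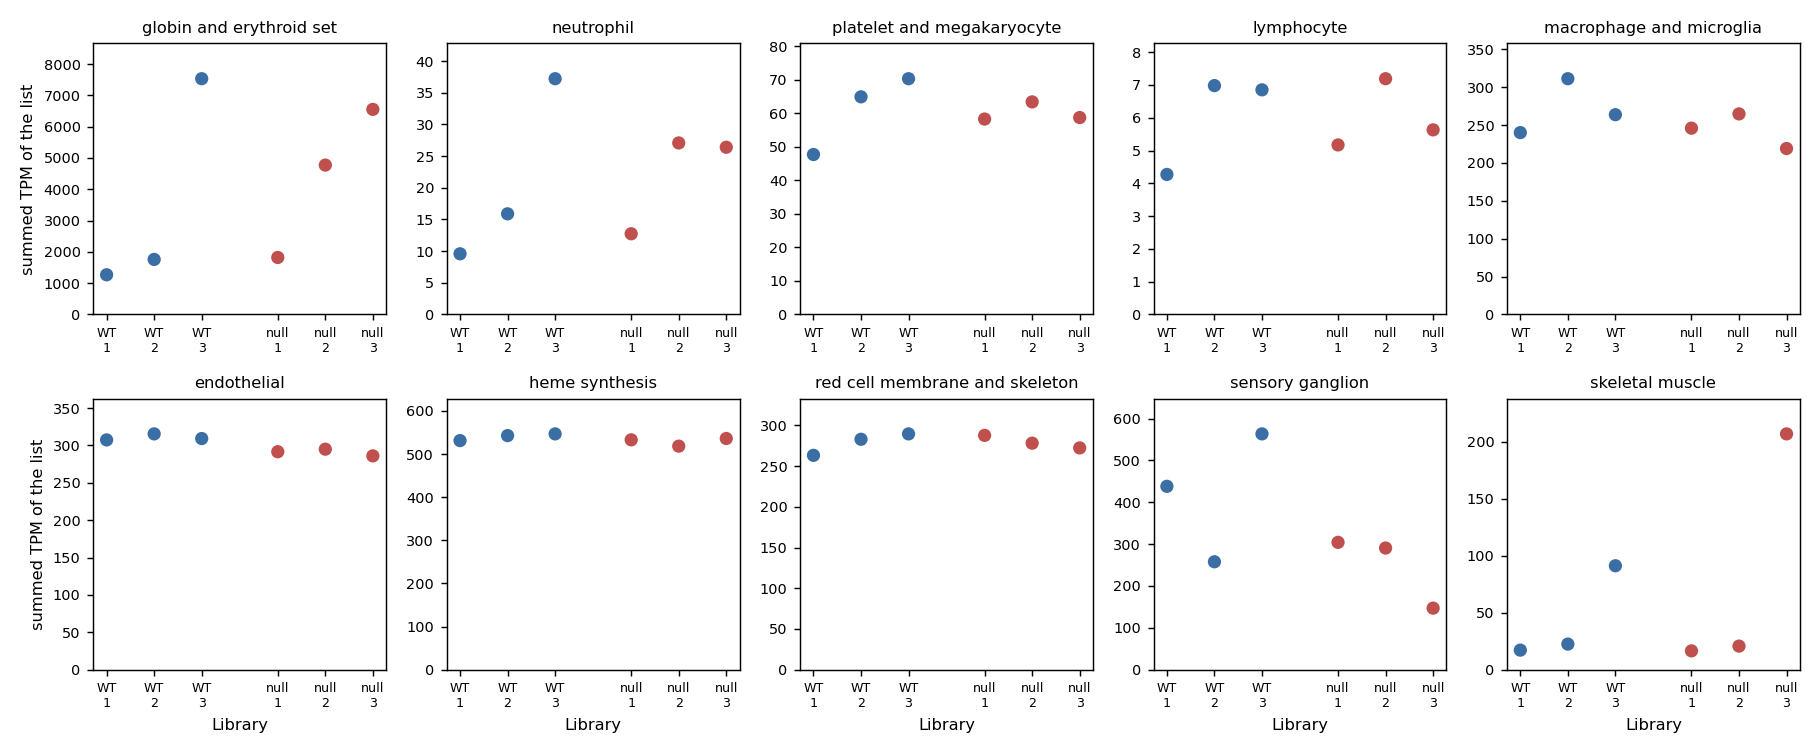
Summed TPM of each gene list in each library, 1 point per library (blue WT, red null), on linear axes from 0. The neutrophil list, from 9.58 to 37.2 TPM, has its 3 highest values in the libraries highest in the globin and erythroid set, while the endothelial list stays between 286 and 316 TPM.

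The genes most like Hbb-bs were ranked by Pearson's r of log2(TPM + 1) over the 6 libraries, among the 2478 other genes with a mean of at least 1 TPM and an SD of at least 0.3 on that scale. Within the set, r was 0.996 for Hbb-bt, 0.986 for Alas2, 0.978 for Hba-a2 and 0.948 for Hba-a1. Outside it the highest were Gm48035 (0.976), Zfp960 (0.963), Ooep (0.963), Gm15459 (0.962), A430108G06Rik (0.962), Rpl15-ps2 (0.961), Nin (0.958) and A930037H05Rik (0.955). None of these 8 was in the lists of blood cells. Hbb-bs was at 502.60 to 767.67 TPM in 3 libraries and at 1897.21 to 2900.51 TPM in the other 3, so that r here mostly says which genes share this division, and with 6 libraries that differ in many ways at once it is a description only.

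What these genes shared was the division and not the size of the range. Nin, which encodes the centrosome protein ninein, was at 7.04 to 7.46 TPM in the 3 libraries low in Hbb-bs and at 10.55 to 12.17 TPM in the others, a 1.73-fold range. Rpl15-ps2, a ribosomal protein pseudogene, was listed at 0 in the 3 libraries low in Hbb-bs and was at 24.50, 27.59 and 28.10 TPM in WT replicate 3 and null replicates 2 and 3. Its value did not rise with Hbb-bs among those 3 libraries, where Hbb-bs differed from 1897.21 to 2900.51 TPM.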

How the data were processed

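RNA from 3 WT and 3 Myt1-/- thoracic spinal cords was sequenced. Values are TPM, deposited as 1 table with a column per sample. The submitters' processing notes name RSEM, DESeq2 and the build GRCm38.p6 but not the role of each; no aligner, annotation or read filter is stated there. TPM keep no depth. Per the labels, titles give the genotype and the replicate number; 1 column of per-sample values matches no labelled sample and was not used.

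Log2(TPM + 1) was tested with limma 3.58.1 in R 4.3.3, with a variance trend and genotype as the only term, for the 15962 genes with a mean of at least 1 TPM (39525 left out), two-sided, Benjamini-Hochberg adjusted. The fit was tested on simulated data. Log2 changes on this scale understate changes of low genes. The 8 genes, the 14 other lists and the tests were chosen with earlier results of these data known. Of the listed symbols, Hbb-b1, Hbb-b2, Ahsp and Fam46c matched no row. Named genes were the 8, Myt1, the 4 most abundant of each list, any that passed, and the 8 most correlated with Hbb-bs; others are marked in the text, and some that the rule names are not reported here. Positions and transcripts come from GENCODE M21, promoters from RefSeq; figures were drawn with matplotlib 3.10.9. Alternatives were limma without the trend, another pseudocount, other filters, a replicate block, other scalings and leaving out each sample.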

Additional observations from a re-analysis of the deposited data

How the results depend on the processing

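None of the 8 genes and no gene of the 14 other lists was called under any of the 13 alternatives, 7 with other settings and 6 with 1 library left out. Over all genes the count of calls was 0, and it was 1 with a pseudocount of 0.1 and 0 to 7 with 1 library left out, with 7 without WT replicate 2; the cause was not tested. At an unadjusted p under 0.05, 690 genes were higher and 499 lower in the null, against 542 higher and 665 lower with median-ratio scaling. With 1 library left out, the log2 change ran from -0.13 to 0.63 for Hba-a1, from -0.020 to 1.30 for Hbb-bt, from -0.079 to 0.89 for Alas2, from 0.14 to 1.40 for Hbb-bs and from 0.082 to 2.23 for Hba-a2. Limma without the trend, the other filters and the replicate block leave the log2 change of a gene as it is by construction. With a pseudocount of 0.1, with median-ratio scaling and with the 8 genes left out of the total, the changes of these 5 genes kept their sign. With replicate number as a block, Hbb-bs had an adjusted p of 0.689 by limma, and the block changed no call. Deviations of same-numbered samples from their group means correlated at 0.031, -0.070 and 0.061. Differently numbered samples were not compared, so these values do not decide whether the numbers pair the samples. With 1 library left out, the difference of null from WT ran from -0.054 to 0.0095 percentage points for the embryonic share, from -0.076 to -0.022 for the alpha to beta ratio and from -0.026 to 0.288 percentage points for the globin share. Leave-one-out values of Hbb-bt, Hba-a2 and Alas2 as shares were added after seeing the data. For Hbb-bt as a share of Hbb-bs the difference of null from WT ran from -2.70 to -1.37 percentage points. The groups of this share did not overlap, so leaving out 1 library could not change its sign. The Hba-a2 share of the alpha pair differed by 1.58 to 25.1 percentage points. Alas2 relative to Hbb-bs differed by -0.156 to -0.075 percentage points. Values near 0 carry counting error that TPM do not allow to be computed.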
